A study of Mus musculus with 8 samples.

Results

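The enzymes of the urea cycle and of periportal amino acid breakdown were followed as 10 named genes in the livers of 8 male mice kept for 3 months on HFCD, a diet rich in fat and lacking choline. The genes were listed by name and not by their values. They were Nags, Cps1, Otc and Slc25a15 for the mitochondrial steps of the cycle, Ass1, Asl and Arg1 for the cytosolic steps, and Hal, Sds and Agxt for the breakdown of single amino acids. All 10 were found among the 49585 genes of the count file, and all 10 were among the 16496 genes that passed the filter on low counts. None changed past the cutoff between genotypes, and 1 liver, LPfl/+ replicate 2, had all 10 below their own mean.

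The 8 livers carried 3 genotypes, and all of the mice began the diet at 21 days of age. The 3 LP245/+ mice were Alb-CreTG with 1 Trp53wm-R245W allele, which makes wild-type p53 until Cre switches it to the p53R245W mutant, and the 2 LPfl/+ mice were Alb-CreTG with 1 floxed Trp53 allele, which Cre deletes. The labels give the 3 LP+/+ mice as Cre-negative (Alb-Cre0), replicates 1 and 2 with an unrecombined Trp53fl allele and replicate 3 with an unrecombined Trp53wm-R245W allele, whereas the study's results describe this genotype as Alb-Cre carriers with 2 wild-type alleles. Alb-Cre is driven by the albumin promoter and acts in hepatocytes and bile duct cells, so the other cells of each liver kept both alleles unrecombined. By their library numbers the samples form 2 series. All LP245/+ livers and LP+/+ replicates 2 and 3 are in the first and both LPfl/+ livers and LP+/+ replicate 1 in the second, so LP245/+ and LPfl/+ livers never share a series.

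The urea cycle turns the ammonia freed from amino acids into urea, and the liver is the organ that runs it in full. It starts in the mitochondria of hepatocytes, passes to the cytosol as citrulline, and returns as ornithine. Its enzymes are highest in the hepatocytes around the portal vein, where blood from the gut arrives first, while the hepatocytes around the central vein take up the remaining ammonia by making glutamine. Glucagon and glucocorticoids are known to raise these enzymes in fasting or on a diet rich in protein, C/EBP factors act on several of their promoters, and p53 has been reported to repress Cps1, Otc and Arg1. Whole-liver RNA does not resolve zones of the lobule, so the zonal position of each gene is taken from background and not from these data.

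The stretches just before the start sites of Otc, Hal and Ass1 are shown because these genes stand for the mitochondrial, the amino acid and the cytosolic groups. RefSeq promoters were matched for 6 of the 10 genes, Otc, Ass1, Nags, Hal, Slc25a15 and Agxt. The sequences below are from RefSeq on GRCm38.p6, plus strand, and capitals mark matches to the C/EBP motif TTNNGNAA on either strand. The Otc stretch is chrX:10252055-10252304, the Hal stretch is chr10:93488518-93488767, and the Ass1 stretch is chr2:31470020-31470206, which ends before the first annotated exon base.
Otc: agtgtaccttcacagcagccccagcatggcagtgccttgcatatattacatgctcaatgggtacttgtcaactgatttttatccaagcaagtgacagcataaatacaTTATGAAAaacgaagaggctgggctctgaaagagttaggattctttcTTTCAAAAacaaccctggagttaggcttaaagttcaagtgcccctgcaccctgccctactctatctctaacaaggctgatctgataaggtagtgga
Hal: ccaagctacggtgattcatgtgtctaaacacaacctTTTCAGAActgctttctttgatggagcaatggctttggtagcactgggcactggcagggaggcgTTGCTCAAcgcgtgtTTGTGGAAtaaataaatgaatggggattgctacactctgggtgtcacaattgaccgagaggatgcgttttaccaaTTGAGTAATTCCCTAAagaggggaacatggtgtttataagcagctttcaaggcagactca
Ass1: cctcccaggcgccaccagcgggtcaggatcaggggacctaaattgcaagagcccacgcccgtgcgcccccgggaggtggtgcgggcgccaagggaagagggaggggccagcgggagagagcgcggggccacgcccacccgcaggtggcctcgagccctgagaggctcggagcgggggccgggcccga
The Hal stretch held 5 matches, at 214, 150, 135, 60 and 52 bases before the start site, of which the last 2 lie end to end. The Otc stretch held 2, at 143 and 96 bases, and the Ass1 stretch held 0. Nags held 1, so 3 of the 6 matched genes held the motif within 250 bases, against 36.8% of 32851 mouse promoters searched over the same length. The TATA box (TATAAA, gene strand, 7.59% of promoters), the cAMP response half-site (TGACG, either strand, 17.8%), the HNF1 half-site (GTTAAT, either strand, 6.43%) and the p53 half-site (either strand, 7.13%) were found in 0 of the 6. A match is only a match of letters, and no match speaks only for these windows.

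The order of the levels was steep. Levels between genes are given per exon length, as TPM (each library's length-scaled counts brought to the same total) computed from the counts with the length of all annotated exons of a gene, which can differ from the length of the transcript in use. Cps1, which makes carbamoyl phosphate from ammonia and is the main entry point of the cycle, was highest at 2029 ± 269 TPM (SD, n = 8 livers). Ass1, which joins citrulline to aspartate, followed at 1531 ± 235 TPM, and Arg1, which splits arginine into urea and ornithine, at 1172 ± 123 TPM. Agxt, which converts glyoxylate to glycine in peroxisomes, had 365 ± 25.8 TPM, and Otc, which makes citrulline from ornithine and carbamoyl phosphate, had 352 ± 33.7 TPM.

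The lower part of the order held Hal, which removes ammonia from histidine, at 206 ± 40.4 TPM, and Asl, which splits argininosuccinate, at 193 ± 30.0 TPM. Slc25a15, the carrier that exchanges ornithine and citrulline across the inner mitochondrial membrane, had 136 ± 18.7 TPM. Sds, which breaks serine down to pyruvate, had 72.2 ± 22.5 TPM, and Nags, which makes the N-acetylglutamate that Cps1 needs to work, was last at 44.2 ± 5.47 TPM. The 8-liver ranges of neighbours did not overlap at 3 steps of this order, from Arg1 to Agxt (3.21-fold by mean TPM), from Otc to Hal (1.71-fold) and from Slc25a15 to Sds (1.89-fold). Agxt was above Otc in 5 of 8 livers and Hal above Asl in 6 of 8, so neither pair had a fixed order, while at each of the other steps the higher gene was higher in all 8 livers. Cps1 was therefore above Ass1 (1.33-fold) and Ass1 above Arg1 (1.31-fold) within every liver, although their ranges over livers overlapped.

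**Figure D1:**
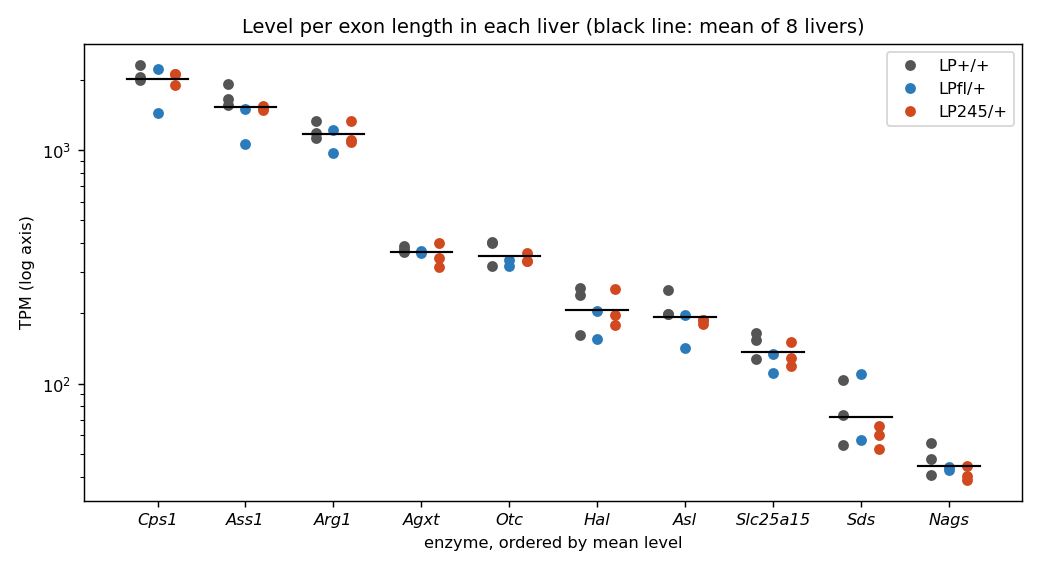
Level of each enzyme per exon length (TPM, log axis) in each of the 8 livers, coloured by genotype, with the enzymes ordered by their mean and a black line at the mean of 8 livers. The levels run from 2029 TPM for Cps1 to 44.2 TPM for Nags, and the widest step is the 3.21-fold drop from Arg1 to Agxt.

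The comparisons between genotypes ask whether loss of 1 Trp53 allele or the R245W mutant in hepatocytes moved these enzymes in livers on this diet. They use CPM, the counts scaled to a common library total with TMM factors, which compare livers for 1 gene and not genes with each other. The test was edgeR's quasi-likelihood F test with Benjamini-Hochberg adjustment over the 16496 genes, and a gene was called at the study's cutoff, a log2 fold change of 1 or more in size with an adjusted p of 0.05 or less. Each library is from 1 mouse, so the spread is that between mice, with 2 or 3 in each group. In bulk RNA a lower value can come from fewer hepatocytes or from less RNA per hepatocyte, and these cannot be told apart.

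In LP245/+ compared with LP+/+ livers, 0 of the 10 genes were called, against 0.00606% of all genes tested (1 gene by edgeR, Cdkn1a, lower in LP245/+, and 10 genes by DESeq2). Neither edgeR nor DESeq2 called any of the 10, and 0 of the 10 had an unadjusted p below 0.05, against 5.66% of all genes. The fitted difference was below 0 for 9 of the 10, with a median log2 fold change of -0.09 against 0.00 over all genes, and the smallest adjusted p of the 10 was 0.873. The 3 LP245/+ livers overlapped the 3 LP+/+ livers for all 10 genes, while 11.6% of all genes did not overlap. The 95% interval of the difference excluded a 2-fold change in either direction for 9 of the 10, the exception being Sds.

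In LPfl/+ compared with LP+/+ livers, 0 of the 10 genes were called by edgeR or DESeq2, and edgeR called 0% of all genes tested (DESeq2 called 9 genes). At an unadjusted p below 0.05 there was 1 of the 10, Ass1 (lower), against 6.71% of all genes, and DESeq2 placed 2 there, Ass1 and Asl. The difference was below 0 for 9 of the 10, with a median log2 fold change of -0.21 against 0.00 over all genes. Ass1 was also the 1 gene of the 10 whose livers did not overlap between these genotypes, against 24.9% of all genes. The intervals excluded a 2-fold change for all 10 when both LPfl/+ livers were counted. The fitted values moved when 1 of them was left out. Without LPfl/+ replicate 1, Ass1 stood at -0.73 and Asl at -0.65, and without LPfl/+ replicate 2, Sds stood at 0.52.

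Between LP245/+ and LPfl/+ livers, 0 of the 10 were called by edgeR or DESeq2, against 0.00606% of all genes (1 gene by edgeR, Fgf21, higher in LP245/+, and 54 genes by DESeq2). An unadjusted p below 0.05 was reached by 0 of the 10, against 8.21% of all genes. The difference was above 0 for 8 of the 10, with a median of 0.17 against 0.00 over all genes, and the smallest adjusted p was 0.69. The livers did not overlap for 1 of the 10, Ass1, against 25.4% of all genes, and the interval excluded a 2-fold change for 9 of the 10, again without Sds. The LPfl/+ livers enter this comparison and the one before it, and the LP+/+ livers enter both of the others, so the 3 sets of differences are not independent.

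**Figure D2:**
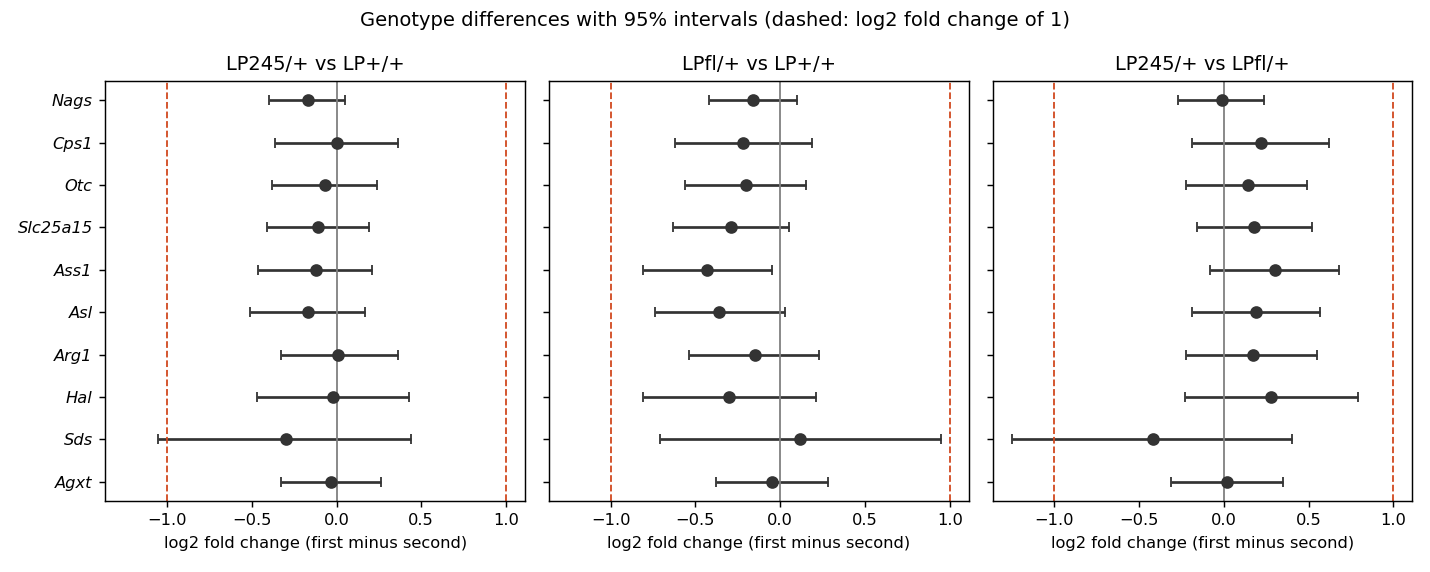
Fitted log2 fold change of each enzyme in the 3 genotype comparisons (points, first genotype minus second) with 95% intervals from edgeR's quasi-likelihood fit, the dashed lines marking a log2 fold change of 1. Only Ass1 in LPfl/+ compared with LP+/+ has an interval that leaves out 0 (from -0.81 to -0.05), and only Sds has intervals that pass a dashed line (down to -1.05 and -1.25).

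Among the mitochondrial steps, Nags (chromosome 11, 102145513 to 102149477, GRCm38) had 65.7, 58.4 and 51.3 CPM in LP+/+, 52.5 and 52.2 CPM in LPfl/+ and 49.0, 54.0 and 52.3 CPM in LP245/+ livers. The LPfl/+ and LP245/+ livers lay between 49.0 and 54.0 CPM, and LP+/+ replicate 3 lay in the same span. Against LP+/+, Nags stood at -0.17 on the log2 scale (standard error 0.10, 95% interval -0.40 to 0.05) in LP245/+ and -0.16 (standard error 0.12, interval -0.42 to 0.10) in LPfl/+. Nags varied least of the 10, with a coefficient of variation of 9.72% over the 8 livers.

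Cps1 (chromosome 1, 67123026 to 67231259) had 5356, 4932 and 4956 CPM in LP+/+, 5371 and 3372 CPM in LPfl/+ and 5088, 5096 and 5038 CPM in LP245/+ livers. Without LPfl/+ replicate 2, at 3372 CPM, the other 7 livers spanned 4932 to 5371 CPM. The 3 LP245/+ livers had a mean of 5074 ± 31.8 CPM (SD, n = 3), next to 5081 ± 238 CPM in LP+/+. Between them the log2 fold change was 0.00 (standard error 0.16, interval -0.36 to 0.36), and in LPfl/+ compared with LP+/+ it was -0.22 (standard error 0.19, interval -0.62 to 0.19).

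Otc (chromosome X, 10252305 to 10321024) had 563, 730.3 and 762 CPM in LP+/+, 623 and 567 CPM in LPfl/+ and 612, 615 and 733 CPM in LP245/+ livers. Its lowest value was in LP+/+ replicate 1 and its highest in LP+/+ replicate 3, so LP+/+ spanned the other genotypes. Relative to LP+/+, Otc stood at -0.07 on the log2 scale (standard error 0.14) in LP245/+ and at -0.20 (standard error 0.16) in LPfl/+. Slc25a15 (chromosome 8, 22375551 to 22398597) had 386, 374 and 319 CPM in LP+/+, 325 and 263 CPM in LPfl/+ and 287, 366 and 347 CPM in LP245/+ livers. All 3 genotypes overlapped, and the log2 fold change was -0.11 (standard error 0.14) in LP245/+ and -0.29 (standard error 0.16) in LPfl/+ compared with LP+/+.

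Of the cytosolic steps, Ass1 (chromosome 2, 31470207 to 31520672) had 1659, 2001 and 1668 CPM in LP+/+, 1563 and 1082 CPM in LPfl/+ and 1577, 1602 and 1714 CPM in LP245/+ livers. Both LPfl/+ livers lay below all 6 others, LPfl/+ replicate 1 by a narrow margin. The log2 fold change in LPfl/+ compared with LP+/+ was -0.43 (standard error 0.17, interval -0.81 to -0.05), with an unadjusted p of 0.0314 and an adjusted p of 0.737 from edgeR. It was -0.12 (standard error 0.15) in LP245/+ compared with LP+/+, and LP245/+ exceeded LPfl/+ by 0.30 (standard error 0.17, interval -0.08 to 0.68). Without LPfl/+ replicate 2 the difference between LPfl/+ and LP+/+ was -0.20 (adjusted p = 0.981 with edgeR), with the lone LPfl/+ liver assumed to vary like the other genotypes. A processed pseudogene, Gm5424, was 99.5% identical to Ass1 over 1240 bases and held 1443 to 2687 counts in a liver, equal to 4.09% to 4.76% of those of Ass1, so reads of Ass1 may be split between them.

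Asl (chromosome 5, 130011258 to 130029247) had 399.9, 524 and 425 CPM in LP+/+, 413 and 289 CPM in LPfl/+ and 375, 392 and 432 CPM in LP245/+ livers. LPfl/+ replicate 1 lay among the LP+/+ and LP245/+ livers and LPfl/+ replicate 2 below all of them. Its log2 fold change was -0.36 (standard error 0.18, interval -0.74 to 0.03) in LPfl/+ and -0.17 (standard error 0.16, interval -0.51 to 0.17) in LP245/+ compared with LP+/+. Arg1 (chromosome 10, 24915221 to 24927484) had 1097, 1278 and 1119 CPM in LP+/+, 1180 and 913 CPM in LPfl/+ and 1044, 1059 and 1417 CPM in LP245/+ livers. Its highest value was in an LP245/+ liver and its lowest in LPfl/+ replicate 2, and the log2 fold change was 0.01 (standard error 0.16) in LP245/+ and -0.15 (standard error 0.18) in LPfl/+ compared with LP+/+.

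Of the enzymes of single amino acids, Hal (chromosome 10, 93488768 to 93519304) had 371, 612 and 589 CPM in LP+/+, 491 and 363 CPM in LPfl/+ and 469.6, 610.4 and 472 CPM in LP245/+ livers. LP+/+ replicate 1 and LPfl/+ replicate 2, both of the second library series, were lowest and close to each other, while LPfl/+ replicate 1 of the same series was not. The log2 fold change was -0.02 (standard error 0.20, interval -0.47 to 0.43) in LP245/+ and -0.30 (standard error 0.23, interval -0.81 to 0.21) in LPfl/+ compared with LP+/+. Agxt (chromosome 1, 93135240 to 93145421) had 265, 268 and 292 CPM in LP+/+, 273 and 257 CPM in LPfl/+ and 231, 252 and 323 CPM in LP245/+ livers. The LP245/+ livers held both its lowest and its highest value, and the log2 fold change was -0.03 (standard error 0.13) in LP245/+ and -0.05 (standard error 0.15) in LPfl/+ compared with LP+/+.

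Sds (chromosome 5, 120476526 to 120483932) had 72.9, 53.6 and 41.0 CPM in LP+/+, 80.6 and 40.7 CPM in LPfl/+ and 44.0, 38.3 and 53.2 CPM in LP245/+ livers. It was the most variable of the 10, with a coefficient of variation of 29.8% and a 2.10-fold span from the lowest to the highest liver, and the 2 LPfl/+ livers stood near opposite ends of that span. Compared with LP+/+, it stood at -0.30 (standard error 0.31, interval -1.05 to 0.44) on the log2 scale in LP245/+ and at 0.12 (standard error 0.35, interval -0.71 to 0.95) in LPfl/+. Between LP245/+ and LPfl/+ it was -0.42 (standard error 0.35, interval -1.25 to 0.40), and without LPfl/+ replicate 2 it was -0.83 (adjusted p = 0.691 with edgeR).

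Sds shares its locus with other genes on the opposite strand, and the strand that was counted is not given in the sources used here. Plbd2 had 1001 to 1312 counts in a liver, where Sds had 1067 to 2251. The antisense gene Gm15690 had 235 counts in LP+/+ replicate 1 and 239 in LPfl/+ replicate 1, the 2 livers with the most Sds, and 39 to 74 counts in the other 6. Reads of Sds and of these partners cannot be told apart if strand was not used in counting. Nags overlaps 1 antisense gene, Gm11586, which had 9 to 20 counts, at most 1.37% of those of Nags.

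**Figure D3:**
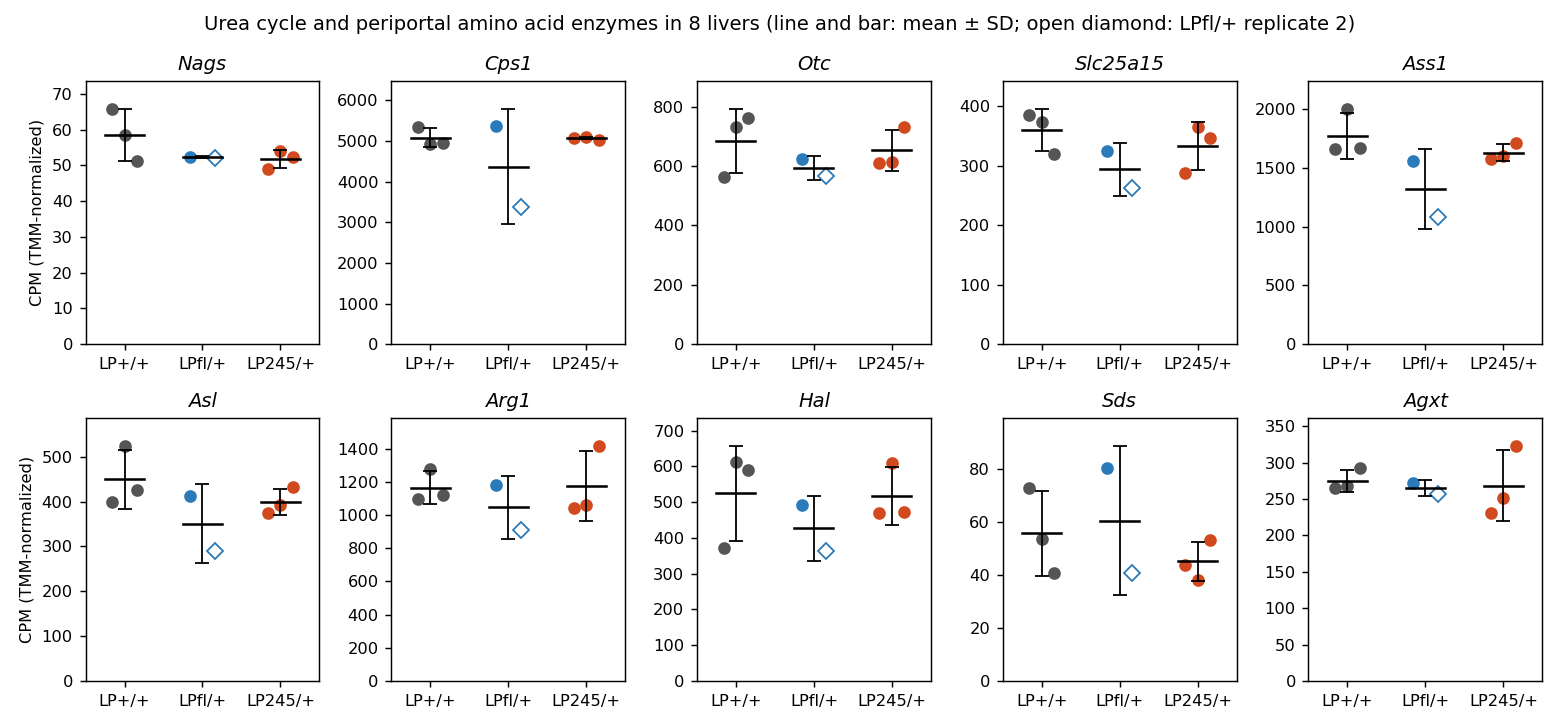
CPM (counts scaled by TMM factors, linear axis from 0) of each enzyme in every liver, by genotype, with the line and bar at the mean and SD (n = 3, 2 and 3) and the open diamond marking LPfl/+ replicate 2. Cps1 lies between 4932 and 5371 CPM in 7 livers and at 3372 CPM in that liver, while Nags and Agxt show no such drop.

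The spread among the LPfl/+ livers was mostly that of replicate 2. All 10 genes were below their 8-liver mean in it, 6 had their lowest value there (Cps1, Slc25a15, Ass1, Asl, Arg1 and Hal), and the median deviation was -0.33 on the log2 scale. The deviations were -0.55 for Ass1, -0.53 for Cps1, -0.47 for Asl and -0.43 for Hal, while Nags and Agxt deviated by -0.06 each. In LP+/+ replicate 2, by contrast, 9 of the 10 were above their mean with a median deviation of 0.18, and in LP245/+ replicate 1, 9 were below with a median of -0.11. The 10 genes took 0.765% of all counts in LPfl/+ replicate 2 and 0.985% to 1.06% in the other 7 livers. The 6 enzymes of the cycle (Nags, Cps1, Otc, Ass1, Asl and Arg1) summed to 3995 TPM in that liver and to 5290 to 6014 TPM in the others. While 11.5% of all genes tested had their lowest value in it, 22 of 32 other genes of amino acid breakdown, 8 of 16 urea cycle partners, 7 of 12 insulin-responsive genes of lipid synthesis, 4 of 15 other periportal genes and 1 of 17 pericentral genes did.

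Without that liver, the median log2 fold change of the 10 genes in LPfl/+ compared with LP+/+ was -0.12 in place of -0.21, and Cps1 stood at 0.07. For LP245/+ against LPfl/+ the median was then -0.01 in place of 0.17. With LPfl/+ replicate 2 kept and LPfl/+ replicate 1 left out, an unadjusted p below 0.05 against LP+/+ was reached by 4 of the 10 (Cps1, Slc25a15, Ass1 and Asl), against 5.53% of all genes, and the median was -0.47. The lone LPfl/+ liver has no spread of its own in these fits and was assumed to vary like the other genotypes. The LPfl/+ differences in these enzymes therefore depended on which of the 2 livers was counted. Summed marker levels in LPfl/+ replicate 2 were within the range of the other livers for hepatocytes (129600 CPM, others 129000 to 177400), Kupffer cells (340.8 CPM, others 302.9 to 470.2), bile duct cells, stellate cells and endothelium. The neutrophil sum was highest in it (3.46 CPM, others 1.72 to 2.90), and the part of these cells in the low values was not tested.

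**Figure D4:**
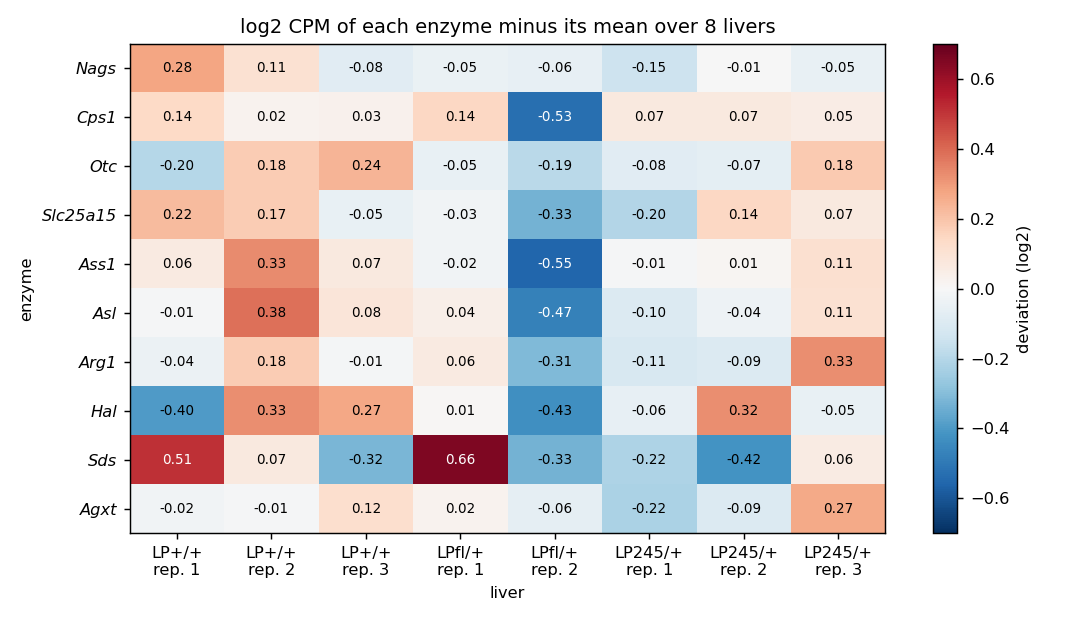
Log2 CPM of each enzyme minus its own mean over the 8 livers (colour and printed value), with enzymes in rows and livers in columns. The column of LPfl/+ replicate 2 is below 0 for all 10 enzymes, from -0.55 for Ass1 to -0.06 for Nags and Agxt, and no other column is.

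Within a library series, each comparison with LP+/+ was recomputed from group means, with no test. In the first series (3 LP245/+ and 2 LP+/+ livers) the median log2 ratio of the 10 genes was -0.08, with Cps1 at 0.04, Asl at -0.25 and Hal at -0.22. In the second series (2 LPfl/+ livers and 1 LP+/+ liver) the median was -0.23, with Slc25a15 at -0.39, Ass1 and Nags at -0.33, Otc at 0.08 and Hal at 0.20. Ass1 was lower in LPfl/+ with all livers and within the series, while Otc and Hal turned from below 0 to above 0 and Sds from 0.12 to -0.27. LP245/+ and LPfl/+ share no series, so no value within a series exists for that comparison, and a fit with the series as a covariate links them only through the LP+/+ livers (Cps1 0.33, Hal -0.42 and Sds 0.20 on the log2 scale, with 0 of the 10 called).

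The enzymes differed in how closely they followed each other from liver to liver. Ass1 and Asl, which catalyse consecutive steps, held the tightest ratio of the 45 pairs, with 4.15, 3.82 and 3.92 counts of Ass1 for each count of Asl in the LP+/+ livers, 3.79 and 3.75 counts in the LPfl/+ livers and 4.20, 4.09 and 3.97 counts in the LP245/+ livers. The coefficient of variation of this ratio was 4.36%, and that of the next pair, Arg1 to Agxt, was 9.18%. The ratio held in LPfl/+ replicate 2 (3.75), where both genes were low. The ratio of Cps1 to Otc, also consecutive steps, ran from 5.95 to 9.51, and that of Hal to Sds from 5.09 to 15.9, the loosest of all pairs.

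Given as a description over 8 livers that share normalization, the correlation of each gene's log2 CPM with the mean of the other 9 was 0.93 for Asl, 0.91 for Ass1, 0.84 for Arg1, 0.79 for Slc25a15 and 0.70 for Cps1. It was 0.55 for Otc, 0.44 for Hal, 0.43 for Agxt, 0.33 for Sds and 0.27 for Nags. The cytosolic enzymes thus stood at the top of this order and the regulatory synthase Nags at the bottom. With each gene scaled to the same mean and SD, the average of the 10 was -1.41 in LPfl/+ replicate 2 and -0.56 to 0.79 in the other livers. That liver therefore has the largest deviation behind these correlations, and the order without it was not tested. With all 8 livers, the 10 genes varied more within genotypes than other genes of such abundance. Their median SD was 0.204 on the log2 scale, against 0.137 for the 2908 genes that reached their lowest CPM in every liver. Only Nags (0.122) was below 0.137. LPfl/+ replicate 2 enters this spread, and the spread without it was not tested. The SD of Cps1 was 1414 CPM in LPfl/+, 238 CPM in LP+/+ and 31.8 CPM in LP245/+. That of Otc was 40.0 CPM in LPfl/+ and 107 CPM in LP+/+. Outside the list, the genes whose profile over the 8 livers was most like the mean of the 10 were Gm26782 (r = 0.97), Tmem260 (0.97), Smim24 (0.96), Rab5c (0.96) and Mtch1 (0.95), of which Gm26782 and Smim24 had 0.43 and 0.18 CPM in their lowest livers. The profile most like that of Ass1 alone was Smim24 (0.97), then Gm5424 (0.97), its near-identical pseudogene, and Gstm2-ps1 (0.96).

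The genes that feed or drain the cycle were taken as a list of 17 partners, of which 16 were tested. In LPfl/+ compared with LP+/+ livers, 0 were called and 13 of the 16 were below 0 (median -0.14). At an unadjusted p below 0.05 with edgeR there were 5, all lower, against 6.71% of all genes. The largest of these differences were in Oat, which links ornithine to glutamate and proline and is itself a pericentral enzyme, and in Got1, which supplies the aspartate used by Ass1. Oat had 453, 943 and 719 CPM in LP+/+, 373 and 393 CPM in LPfl/+ and 519, 672 and 739 CPM in LP245/+ livers, so both LPfl/+ livers were below all others. Its log2 fold change was -0.88 in LPfl/+ compared with LP+/+ (standard error 0.28, edgeR adjusted p = 0.702) and LP245/+ was above LPfl/+ by 0.75 (standard error 0.28, adjusted p = 0.543). LP+/+ replicate 1, at 453 CPM, shares the library series of the LPfl/+ livers. The other LP+/+ livers, at 943 and 719 CPM, share that of LP245/+. The part of the library series in the Oat differences was not tested.

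Got1 had 241, 232 and 169 CPM in LP+/+, 146 and 99.7 CPM in LPfl/+ and 149, 194 and 211 CPM in LP245/+ livers, with a log2 fold change of -0.80 in LPfl/+ compared with LP+/+ (standard error 0.22, edgeR adjusted p = 0.627). Unlike Cps1, Oat was as low in LPfl/+ replicate 1 as in replicate 2. For LP245/+ against LP+/+, 0 of the 16 partners had an unadjusted p below 0.05 with edgeR, against 5.66% of all genes, and the median was 0.05. Without LPfl/+ replicate 2, 14 of the 17 partners then tested were below 0 in LPfl/+ compared with LP+/+ (median -0.13).

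In the neighbouring pathways of amino acids, 0 genes were called in any comparison. Among 13 tested genes of histidine, serine and glyoxylate metabolism, the largest difference was in Gldc, the glycine decarboxylase, which had 351, 384 and 377 CPM in LP+/+ and 209, 299.7 and 246 CPM in LP245/+ livers, with no overlap (log2 fold change -0.56, standard error 0.15, edgeR adjusted p = 0.835). Among 32 other genes of amino acid breakdown, 31 were below 0 in LPfl/+ compared with LP+/+ (median -0.19). Of the 32, 4 had an unadjusted p below 0.05 with edgeR, against 6.71% of all genes. Among these 4 were Mat1a, which makes S-adenosylmethionine (-0.59, standard error 0.22), and Gnmt, which uses it to methylate glycine (-0.44, standard error 0.17). Without LPfl/+ replicate 2, 26 of the 32 were below 0 (median -0.10) and 0 had such a p. For LP245/+ against LP+/+, 25 of the 32 were below 0 with a median of -0.05. Mat1a had 2447, 4468 and 3669 CPM in LP+/+ and 2504 and 2185 CPM in LPfl/+ livers. Gnmt had 1331, 1653 and 1293 CPM in LP+/+ and 1217 and 890 CPM in LPfl/+ livers. Only the first of these LP+/+ livers, replicate 1, shares the library series of the LPfl/+ livers. The part of the series in these differences was not tested.

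Zonation lists were set beside the 10 genes. Oat and Glul are both on the pericentral list and among the partners above, and Gls2 is both an other periportal gene and a partner. Of 15 tested genes of other periportal functions, 10 were below 0 in LPfl/+ (median -0.10) and 11 in LP245/+ (median -0.12) compared with LP+/+. In the latter comparison G6pc, the last enzyme of glucose output, stood at -1.05 (standard error 0.43, edgeR adjusted p = 0.863), with 1151 CPM in LP+/+ replicate 1 against 436 and 611 CPM in the other LP+/+ livers. Of 17 pericentral genes, 15 were below 0 in LPfl/+ compared with LP+/+ (median -0.30), against a median of 0.00 in LP245/+. In LPfl/+, 5 of them had an unadjusted p below 0.05 with edgeR, against 6.71% of all genes. Without LPfl/+ replicate 2, 16 of the 17 pericentral genes were below 0 (median -0.36), while the other periportal genes had 8 below and 7 above 0 (median -0.03). All LPfl/+ livers belong to the second library series, as does 1 of the 3 LP+/+ livers, replicate 1. The pericentral sum was 8799 to 9169 CPM in LPfl/+, 8895 to 12880 CPM in LP+/+ and 10100 to 13000 CPM in LP245/+ livers. The 8895 CPM was that of LP+/+ replicate 1, which lay between the LPfl/+ livers. Within that series single genes went both ways. Cyp2e1 had 4114 CPM in LP+/+ replicate 1 and 4500 and 4895 CPM in LPfl/+, whereas Glul had 1224, 780 and 994.6 CPM. The part of the library series in the pericentral differences was not tested.

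Genes that respond to hormones of fasting and feeding were also read, since these hormones set the urea enzymes. Of 21 fasting genes tested, 14 were below 0 in LP245/+ and 19 in LPfl/+ compared with LP+/+ (medians -0.08 and -0.16). With LPfl/+ replicate 2 left out, 13 were below 0 in LPfl/+ (median -0.06). The 1 call among all lists was Fgf21, a hormone of fasting and of amino acid shortage, which had 4.14, 4.11 and 4.43 CPM in LP+/+, 2.61 and 2.43 CPM in LPfl/+ and 8.08, 6.75 and 7.62 CPM in LP245/+ livers. It was higher in LP245/+ than in LPfl/+ by 1.57 on the log2 scale (standard error 0.18, edgeR adjusted p = 0.0438). This call was lost under 4 of 11 other processing choices (library totals, the replicate block, the library series as a covariate and no robust dispersions) and in 6 of 8 fits with a liver left out, with adjusted p-values up to 0.212. Of the 21 fasting genes, 8 had their lowest value in LPfl/+ replicate 2, among them Pck1 and Tat, both raised by glucagon or glucocorticoids (812 and 670.3 CPM, against 1827 to 2796 CPM and 1366 to 2042 CPM in the other livers). In contrast 1 of the list, the metallothionein Mt1, was highest there (10.96 CPM, others 3.83 to 7.08 CPM).

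Of 12 insulin-responsive genes of lipid synthesis, 12 were above 0 in LP245/+ compared with LPfl/+ (median 0.49), 2 genotypes that share no library series. An unadjusted p below 0.05 with edgeR was reached by 7 of the 12, against 8.21% of all genes, and 0 were called. Leaving out LPfl/+ replicate 2, 11 were above 0 (median 0.45). The median of the 12 was 0.11 in LP245/+ and -0.41 in LPfl/+ compared with LP+/+. Of these, Thrsp, which promotes lipid synthesis, stood at 1.37 (standard error 0.34, edgeR adjusted p = 0.38) and Fasn, the fatty acid synthase, at 1.25 (standard error 0.47, adjusted p = 0.566) for LP245/+ against LPfl/+. Polyamine genes, which use the ornithine made by Arg1, had medians between -0.09 and 0.06 over the 3 comparisons, and 11 of the 12 were tested. Of these, Azin1, an inhibitor of the antizymes, was at 0.33 (standard error 0.12, edgeR adjusted p = 0.835) in LP245/+ compared with LP+/+.

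Among 15 transcription factors known to act on urea cycle genes, 0 were called in any comparison. Trp53 itself, targeted in 2 of the genotypes, was at -0.58 (standard error 0.24, edgeR adjusted p = 0.737) in LPfl/+ compared with LP+/+ and at 0.82 (standard error 0.24, adjusted p = 0.38) for LP245/+ against LPfl/+, with wild-type and mutant transcripts counted together. Cebpa, whose motif is marked in the sequences of Otc and Hal, had 144 to 165 CPM in all 8 livers, and Nr3c1, the glucocorticoid receptor, had 166 to 184 CPM. Hnf4a, a factor of hepatocyte identity, had 557, 643 and 722 CPM in LP+/+, 540 and 546 CPM in LPfl/+ and 648 to 752 CPM in LP245/+ livers. LP245/+ was above LPfl/+ by 0.39 on the log2 scale (standard error 0.14, edgeR adjusted p = 0.528). The LP+/+ liver at 557 CPM, replicate 1, shares the library series of the LPfl/+ livers. The other LP+/+ livers share that of LP245/+, so series and genotype cannot be told apart here. Esr1, the oestrogen receptor, was at -0.50 (standard error 0.14, adjusted p = 0.835) in LP245/+ compared with LP+/+.

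Markers of hepatocytes dominated every library, as the label of liver implies. Albumin took between 7.81% and 11.3% of the counts, and the 13 hepatocyte markers summed to between 129000 and 177400 CPM. Marker sums were 71.7 to 90.0 CPM for bile duct cells (8 genes), 303 to 470.2 CPM for Kupffer cells (10 genes), 460 to 595 CPM for stellate cells and fibroblasts (10 genes), 382 to 593 CPM for endothelium (8 genes), 324 to 684 CPM for red blood cells (6 genes), 19.5 to 32.0 CPM for lymphocytes (10 genes, 7 tested) and 1.72 to 3.46 CPM for neutrophils (7 genes, 3 tested, with Ly6g at 0 counts in all livers). Kidney and pancreas markers summed to 20.7 to 36.5 CPM but nearly all of it was Cela1 (20.7 to 36.5 CPM), the 1 of these 6 genes that was tested, with Umod and Prss1 at 0 counts in all livers. In LPfl/+ compared with LP+/+, 11 of 13 hepatocyte markers were below 0 (median -0.19, near the -0.21 of the 10 enzymes), and 12 of 13 were without LPfl/+ replicate 2 (median -0.22). Of the red blood cell markers 6 of 6 and of the endothelial markers 7 of 8 were below 0, and 0 markers of any list were called. The part of these differences in those of the enzymes was not tested. The hepatocyte sums were 129600 to 135200 CPM in LPfl/+, 129000 to 177400 CPM in LP+/+ and 131000 to 152500 CPM in LP245/+ livers. The lowest was in LP+/+ replicate 1, which shares the library series of the LPfl/+ livers. The other LP+/+ livers, of the first series, were above both LPfl/+ livers. The part of the library series in the marker differences was not tested. Totals ran from 26304526 to 31370714 counts, at which the floor of 3 counts equals 0.0956 to 0.114 CPM and covers counting error only. No pair of the 28 pairs of libraries agreed within sampling noise, and the 2 library series lay on opposite sides of the first principal component (31.0% of the variance).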

How the data were processed

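Liver RNA of 3 LP+/+, 2 LPfl/+ and 3 LP245/+ males was sequenced by the study. The authors made stranded, paired-end total RNA libraries, aligned the reads to GRCm38 with STAR and deposited the raw read counts of 49585 genes, without normalization. The GENCODE release and the strand used for counting are not given in the sources used here, so antisense and overlapping genes are uncertain. Genes were named from GENCODE M21, which gave 49326 identifiers a symbol. All 8 columns were matched to a label.

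Genotypes were compared with edgeR 4.0.16 in R 4.3.3 (filterByExpr by genotype, TMM factors, robust quasi-likelihood fit of all 8 livers), with intervals from its standard errors. DESeq2 1.42.0, other scalings, filters, fits, a replicate block, the library series as a covariate and leaving out each liver were the alternatives, of which the fit without robust dispersions and the lists without LPfl/+ replicate 2 were added after the data were seen. The code was tested on simulated counts first. No pairing of livers by replicate number was evident, as no same-numbered pair had deviations that correlated above 0.1 (-0.078 to 0.029). Deviations from means of 2 or 3 livers cannot exclude a pairing. Like sequences were found with BLAST 2.17.0, and Python 3.11.15 with matplotlib 3.10.9 made the plots.

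The 10 genes and the other lists were chosen with earlier results of these data known. Named were the 10 genes, any called gene of a list, up to 2 genes of a list with the largest difference at an unadjusted p below 0.05, and the genes most like the 10 or like Ass1 in profile. Pck1, Tat, Cebpa and Nr3c1 were named after their values were seen.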

Additional observations from a re-analysis of the deposited data

How the results depend on the processing

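None of the 10 genes was called in any comparison under any of the 19 alternatives, 11 of them other processing choices and 8 a left-out liver, and the lowest adjusted p over all of them was 0.318. The fitted difference kept its sign for 217 of 240 values with a liver left out and for 310 of 330 values under the other alternatives. The 330 include the alternative with no fold-change cutoff, which reuses the main fit, so its values could not turn. For the values that turned, listed here, the cause was not tested beyond the livers or the setting named. With 2 or 3 livers a genotype and intervals as wide as those given above, small changes could not be detected, and the LPfl/+ differences rest on 2 livers.

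Over all genes, the number called in LP245/+ compared with LP+/+ was 10 with DESeq2, 25 with no filter and 3 with the series as a covariate. For LPfl/+ against LP+/+ it was 9, 41 and 8 under the same choices. For LP245/+ against LPfl/+ it was 54 with DESeq2, 126 with no filter, 53 with only the 2 groups compared, 8 with the series as a covariate, and 0 with library totals, with the replicate block and without robust dispersions. For LPfl/+ against LP+/+, an unadjusted p below 0.05 was reached by 2 of the 10 genes with DESeq2, 4 with no filter and 0 with only the 2 groups fitted. Of all genes tested, 5.39%, 6.15% and 7.3% reached it under the same choices.

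With library totals in place of TMM factors, Arg1 turned to -0.01 in LP245/+ compared with LP+/+, and Agxt to 0.01 in LPfl/+ compared with LP+/+ and to -0.06 in LP245/+ compared with LPfl/+. With the replicate block, Cps1 and Arg1 turned at 0.00 in LP245/+ compared with LP+/+, Agxt turned to 0.04 in LPfl/+ compared with LP+/+, and Nags to 0.03 and Agxt to -0.09 in LP245/+ compared with LPfl/+. The block gave the 10 genes no call. With the series as a covariate, Cps1 turned to 0.04 and Arg1 to -0.03 in LP245/+ compared with LP+/+. In LPfl/+ compared with LP+/+ Otc turned to 0.08, Hal to 0.20, Sds to -0.27 and Agxt at 0.00. For LP245/+ against LPfl/+ Otc turned to -0.27, Asl to -0.06, Nags to 0.25, Hal to -0.42, Sds to 0.20 and Agxt to -0.06, a comparison that the covariate links only through LP+/+ livers.

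When single livers were left out, the genes called ranged from 0 to 5 in LP245/+ compared with LP+/+ (5 without LP245/+ replicate 3), from 0 to 51 in LPfl/+ compared with LP+/+ (51 without LP+/+ replicate 1) and from 0 to 42 in LP245/+ compared with LPfl/+ (42 without LP+/+ replicate 1). Of the 10 genes, 0 to 1 had an unadjusted p below 0.05 in the first comparison (Nags, without LP+/+ replicate 3), against 5.53% of all genes without that liver. In the second comparison, with both LPfl/+ livers kept, it was 0 to 4 (4 without LP+/+ replicate 1), against 11.5% of all genes without that liver. The median of the 10 ranged from -0.17 to -0.03 in the first (without LP245/+ replicate 3 or 1), and from -0.47 to -0.12 in the second and -0.01 to 0.35 in the third (without LPfl/+ replicate 1 or 2). For LP245/+ against LP+/+ the range was -0.03 to 0.04 for Cps1, -0.19 to 0.01 for Otc, -0.16 to 0.08 for Arg1, -0.22 to 0.10 for Hal and -0.20 to 0.06 for Agxt. In LPfl/+ compared with LP+/+ it was -0.60 to 0.07 for Cps1, -0.36 to 0.00 for Arg1 and -0.47 to 0.52 for Sds. For LP245/+ against LPfl/+ it was -0.08 to 0.59 for Cps1, -0.04 to 0.47 for Asl, 0.00 to 0.37 for Arg1, -0.05 to 0.03 for Nags, -0.83 to 0.15 for Sds and -0.14 to 0.12 for Agxt.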
